A study of Mus musculus with 5 samples.

Results

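The genes described here are 10 genes of chromosome structure: the cohesin genes Smc1a, Smc3, Rad21 and Stag2, the condensin genes Smc2, Smc4, Ncapd2, Ncapg and Ncaph, and the topoisomerase II gene Top2a. They were chosen by name. Where a gene had several probe sets, the one of highest mean was taken, which gave 10 of the 19938 genes that had a probe set of their own. Expression was measured on 5 Affymetrix whole-transcript arrays, 1 per mouse, in total RNA of mammary gland from FVB/N females 8 weeks old. The 3 cyclin D1 mice carried a CCND1 transgene together with rtTA, and the 2 control mice carried rtTA alone. rtTA is a transactivator that works when doxycycline is bound to it and then turns on genes placed under a tetracycline operator. It was driven here by MMTV, a viral promoter active in mammary epithelium, so that all 5 mice shared the MMTV-rtTA transgene. The treatment protocol in the labels gives 7 days of doxycycline, words this for mice with a "KE" mutant of CCND1, and does not say whether the controls received the drug. The series' title and design ask how the gland's expression differs after acute expression of cyclin D1, the regulatory subunit of the kinases CDK4 and CDK6.

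Cohesin is a ring built of the long coiled-coil ATPases Smc1a and Smc3, closed by the kleisin Rad21 and bound by a Stag subunit, and it holds sister chromatids together and forms chromatin loops in interphase. Condensin has the ATPases Smc2 and Smc4 at its core and compacts chromosomes for mitosis. Its form called condensin I adds the kleisin Ncaph and the repeat subunits Ncapd2 and Ncapg. Topoisomerase II alpha, encoded by Top2a, passes one DNA duplex through another and is made mainly by dividing cells, whereas cohesin is present in dividing and resting cells alike.

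The arrays differed in spread. The SD of log2 values across genes was 1.2 to 1.38 on the cyclin D1 arrays and 0.735 and 0.926 on controls 1 and 2, and 1597 to 2120 genes on the cyclin D1 arrays, against 305 and 712 in the controls, had a log2 value above 5. Genes of high mean expression were also higher in the cyclin D1 arrays as a class, with a median log2 difference of 1.59 in the 1994 genes of the highest decile. That mean was taken over all 5 arrays, 3 of them cyclin D1. A high value in cyclin D1 glands thus itself helped to place a gene in the decile, and shares within it are not independent of the difference. Of the 10 genes 8 lay in that decile. The differences of the 10 genes, and of the related genes named as having passed, are given as deposited and again after the gene values of the 5 arrays had been quantile-normalized anew ("renormalized"), which gives every array the same spread and brought the median of that decile to 0.36. The mouse gene Ccnd1 stood at 4.63, 4.92 and 4.0 in cyclin D1 glands and at 4.04 and 3.49 in controls, with overlapping groups and no call (limma adjusted p = 0.218). Whether its probe set, 10569646, also reads the CCND1 transgene was not tested. The epithelial markers Krt8 and Krt18, keratins of luminal cells, had log2 values of 5.09 to 6.28 in cyclin D1 glands and 3.65 to 4.61 in controls, neither passing (adjusted p = 0.125 for Krt8 and 0.129 for Krt18) and with renormalized differences of 0.16 and -0.55. They belong to a list of 9 measured luminal markers, of which 7 had positive renormalized differences. The median of that list was 0.38, with Epcam at 1.54 and Cdh1 at 0.88. The mean of 1015 olfactory receptor genes, which served as a rough floor, was 1.97 to 2.23 on the cyclin D1 arrays and 2.52 and 2.38 on controls 1 and 2, and all 10 genes lay above it on all 5 arrays.

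Top2a (probe set 10390707, chr11:98992947-99024199 on GRCm38.p6) showed the widest separation of the 10 genes. Its log2 expression was 5.97, 6.84 and 6.65 in cyclin D1 glands, against 2.74 and 3.74 in controls 1 and 2. The groups did not overlap, and the lowest cyclin D1 gland stood 2.23 log2 units above the higher control. Top2a rose 9.5-fold, a log2 difference of 3.25 (SE 0.40, 95% interval 2.25 to 4.25, limma adjusted p = 0.0213). Control 1 lay only 0.21 above the olfactory receptor mean of its array, so the size of this difference is inexact. After renormalization the Top2a difference was 2.52 (95% interval 1.36 to 3.69) and did not pass over all genes (adjusted p = 0.0753), although the groups still did not overlap. Among all genes of its own array Top2a held percentiles 95.2, 97.5 and 98.0 in cyclin D1 glands, against 43.6 and 84.7 in controls.

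Top2a has 3 other probe sets on the array. One, annotated to Top2a alone, read 1.72, 1.68 and 1.42 in cyclin D1 glands and 2.66 and 1.75 in controls, no higher than the olfactory receptor mean on 4 of 5 arrays. Its direction was opposite to that of the probe set used, and with these 2 probe sets averaged Top2a differed by 1.32 (adjusted p = 0.0220). The other 2 are shared with Hibadh, a gene of valine breakdown, and were highest in cyclin D1 gland 2, at 2.58 and 2.89.

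The promoter of Top2a is shown because this gene separated the groups most and because its letters can be set beside those of the other members. Sequences are from RefSeq on GRCm38.p6, cover the 200 bases before the transcript start of the promoter table and run 5′ to 3′ on the gene's strand. That start lies inside the gene's outermost annotated bounds for Top2a, Ncapg and Ncapd2, so part of their sequence, and for Ncapd2 all of it, falls within the gene as annotated. Positions are counted from the table's start. Capitals mark TTTGAA, the core of the cell cycle homology region (CHR) known from promoters of mitotic genes, CCAAT, the box read by NF-Y, and TTTNNCGC, a form of the E2F site, each searched on both strands.
Top2a, chr11:99024190-99024389, minus strand: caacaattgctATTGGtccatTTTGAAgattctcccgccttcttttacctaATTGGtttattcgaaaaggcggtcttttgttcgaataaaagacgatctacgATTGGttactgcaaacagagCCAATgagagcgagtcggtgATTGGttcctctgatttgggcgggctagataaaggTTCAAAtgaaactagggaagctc
The 250 bases searched held TTTGAA 2 times, once from 23 to 18 bases before the start, and CCAAT 6 times. Over all 32851 promoters of the table, 16.0% held TTTGAA, 33.8% held CCAAT and 4.3% held TTTNNCGC in the same window. A variant of the CHR core, TTTAAA, was searched too and was in 12.1% of all promoters and in 0 of the members. These motifs do not overlap one another in the promoters shown, and a match describes letters only. Of the 7 members with an entry in the promoter table, 4 held TTTGAA, 5 held CCAAT and 1 held TTTNNCGC.

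**Figure D1:**
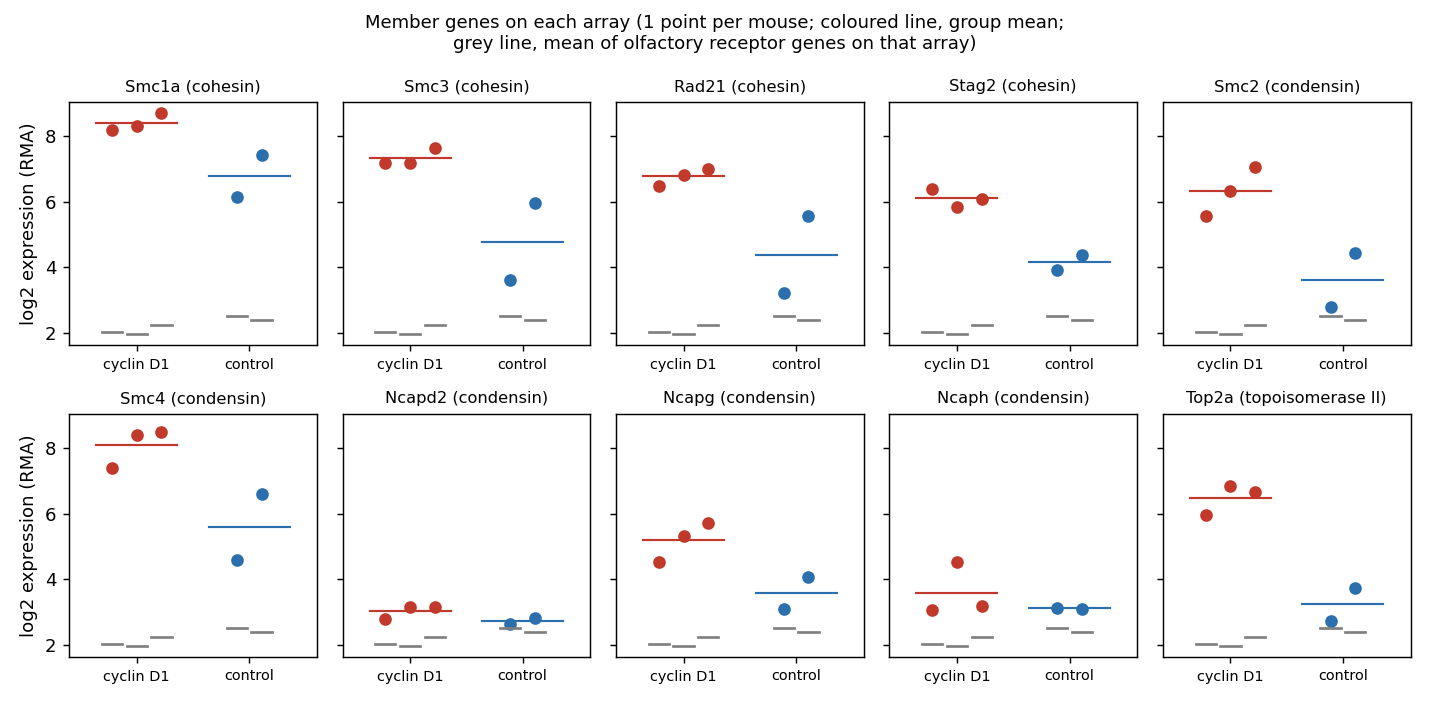
Log2 expression (RMA) of the 10 genes on each array, 1 point per mouse, with cyclin D1 glands in red and controls in blue. Coloured lines are group means and grey lines the olfactory receptor mean of that array. Groups do not overlap for 8 genes, all except Ncapd2 and Ncaph.

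None of the 5 condensin genes passed the test over all genes. The 3 that had all cyclin D1 glands above both controls, Smc2, Smc4 and Ncapg, lay in the highest decile, where 82.2% of genes did so, against 22.4% of all genes. Smc2, an ATPase core subunit, read 5.58, 6.32 and 7.07 in cyclin D1 glands, against 2.78 and 4.44 in controls. Smc4, its partner ATPase, read 7.38, 8.41 and 8.50, against 4.58 and 6.61. In both genes control 2 stood well above control 1, by 1.65 log2 units for Smc2 and 2.02 for Smc4, and the groups did not overlap. The log2 difference was 2.71 for Smc2 (SE 0.63, limma adjusted p = 0.0701). It was 2.5 for Smc4 (SE 0.67, limma adjusted p = 0.0929). Control 1 lay 0.26 above the olfactory receptor mean for Smc2, so that difference is inexact.

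Of the subunits particular to condensin I, Ncapg read 4.51, 5.32 and 5.73 in cyclin D1 glands, against 3.10 and 4.06 in controls, a difference of 1.6 (95% interval 0.47 to 2.74, limma adjusted p = 0.101). The groups were 0.45 apart at their nearest. Ncapd2, the other repeat subunit, was dim throughout, at 2.79, 3.17 and 3.14 against 2.63 and 2.81, and its groups touched, since control 2 stood at the level of cyclin D1 gland 1. Its difference was 0.31 (95% interval -0.13 to 0.75, limma adjusted p = 0.313). Ncaph, the kleisin, read 3.06, 4.52 and 3.18 in cyclin D1 glands, against 3.13 and 3.10 in controls. Cyclin D1 gland 2 alone was high for Ncaph, and the other glands lay within 0.13 of one another. The Ncaph difference of 0.47 (95% interval -0.70 to 1.64, limma adjusted p = 0.544) became 0.0040 without cyclin D1 gland 2.

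After renormalization the differences were 1.85 for Smc2, 0.80 for Smc4, 0.93 for Ncapg, 0.38 for Ncapd2 and 0.28 for Ncaph, all positive and none passing. Their 95% intervals all included 0, the widest being -0.11 to 3.81 for Smc2. Smc2 and Ncapd2 were the condensin genes whose groups did not overlap on that scale. In rank within the array, Smc2 held percentiles 93.6, 95.9 and 98.6 in cyclin D1 glands, against 47.5 and 93.4 in controls, so that control 2 ranked beside the lowest cyclin D1 gland. Smc4 held percentiles of 98.6 to 99.6 in cyclin D1 glands and 97.3 and 99.1 in controls.

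The promoters of 3 condensin genes are shown for comparison with Top2a, since they were the other members with TTTGAA in the window.
Smc2, chr4:52439021-52439220, plus strand: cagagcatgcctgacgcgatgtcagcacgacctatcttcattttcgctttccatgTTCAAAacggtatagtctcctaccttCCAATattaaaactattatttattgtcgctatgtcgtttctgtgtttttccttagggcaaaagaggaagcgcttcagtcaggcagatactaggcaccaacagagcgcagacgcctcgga
Ncapg, chr5:45669725-45669924, plus strand: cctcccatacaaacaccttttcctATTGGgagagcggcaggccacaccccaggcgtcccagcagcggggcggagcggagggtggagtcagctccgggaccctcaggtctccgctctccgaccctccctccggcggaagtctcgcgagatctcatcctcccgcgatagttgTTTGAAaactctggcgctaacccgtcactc
Ncapd2, chr6:125191587-125191786, minus strand: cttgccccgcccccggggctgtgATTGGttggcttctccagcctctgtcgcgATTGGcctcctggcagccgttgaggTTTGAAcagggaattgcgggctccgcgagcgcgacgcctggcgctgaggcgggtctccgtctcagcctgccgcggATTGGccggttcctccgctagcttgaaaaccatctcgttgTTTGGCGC
TTTGAA lay 30 to 25 bases before the start in Ncapg, 123 to 118 in Ncapd2 and, on the opposite strand, 145 to 140 in Smc2. Ncapd2 was the member with TTTNNCGC, in the last 8 bases before the start. Ncapd2 thus holds all 3 motifs, and Top2a holds TTTGAA and CCAAT. Any bearing of the motifs on the differences was not tested. Ncaph, whose promoter was also in the table, held none of the 3 in this window.

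Cohesin genes had all cyclin D1 glands above both controls in 4 of 4, and 1 of the 4, Stag2, passed the test. All 4 lay in the highest decile, where 82.2% of genes separated this way and 36% were called higher. Stag2 (probe set 10599377, chrX:42149297-42277186), the subunit through which cohesin meets CTCF and its regulators, read 6.39, 5.83 and 6.09 in cyclin D1 glands, against 3.92 and 4.37 in controls. The groups lay 1.46 apart at their nearest, and the 2 controls differed by only 0.45. Stag2 rose 3.88-fold, a log2 difference of 1.96 (SE 0.23, 95% interval 1.37 to 2.54, limma adjusted p = 0.0205). Renormalized, its difference was 0.63 (95% interval 0.06 to 1.2, adjusted p = 0.230), with groups that still did not overlap.

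The ring subunits had larger gaps between the 2 controls. Smc3 read 7.19, 7.19 and 7.64 in cyclin D1 glands, against 3.61 and 5.96 in controls. Rad21, the kleisin that separase cuts at anaphase, read 6.49, 6.83 and 7.01, against 3.22 and 5.56. In both genes the cyclin D1 glands spanned at most 0.51 log2 units, while control 2 exceeded control 1 by 2.35 for Smc3 and 2.34 for Rad21. The difference was 2.55 for Smc3 (SE 0.68, limma adjusted p = 0.0919). Rad21 differed by 2.38 (SE 0.68, limma adjusted p = 0.102). Leaving out control 1 lowered these to 1.38 and 1.21. Neither passed then (adjusted p = 0.118 for Smc3 and 0.126 for Rad21), whereas both passed without control 2 (adjusted p = 0.0311 for each).

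Smc1a, the partner of Smc3, read 8.18, 8.32 and 8.70 in cyclin D1 glands, against 6.14 and 7.42 in controls, a difference of 1.62 (SE 0.41, limma adjusted p = 0.0805). It also passed when control 2 was left out, with a difference of 2.26 (adjusted p = 0.0383). This gene was the one member whose sign turned after renormalization, to -0.21 (95% interval -0.95 to 0.52). Smc1a ranked at percentiles 99.3, 99.3 and 99.7 on the cyclin D1 arrays and 99.5 and 99.6 on the controls, among the highest signals of every array. The renormalized differences were 1.30 for Smc3 and 1.32 for Rad21, with intervals that included 0.
The promoter of Smc1a is shown as that of a member without TTTGAA in the window.
Smc1a, chrX:152016228-152016427, plus strand: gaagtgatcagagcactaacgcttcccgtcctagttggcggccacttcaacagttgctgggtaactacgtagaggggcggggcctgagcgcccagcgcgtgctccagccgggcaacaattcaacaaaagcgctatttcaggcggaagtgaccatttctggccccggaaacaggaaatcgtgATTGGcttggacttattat
It held CCAAT once, from 19 to 15 bases before the start, and the promoter of Smc3 held none of the 3 motifs.

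**Figure D2:**
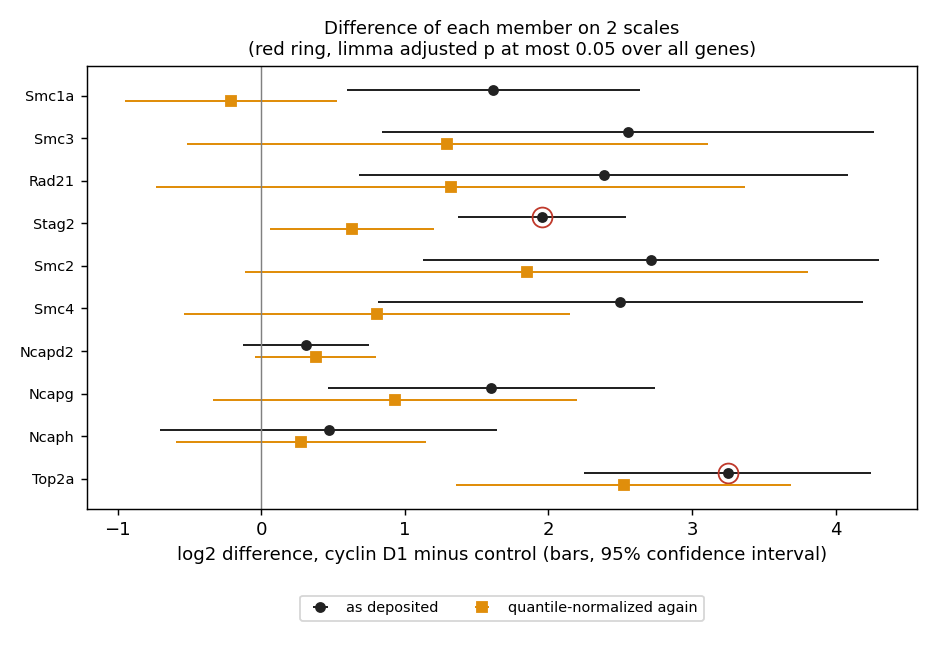
Log2 difference, cyclin D1 minus control, of the 10 genes with 95% confidence intervals, as deposited (black) and quantile-normalized again (orange). Red rings mark Stag2 and Top2a, which passed as deposited. Smc1a crosses 0 after renormalization, and Top2a keeps a difference of 2.52.

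Over the 10 genes, 2 rose and 0 fell, and all 10 differences were positive with a median of 2.17, against a median of -0.053 over all 19938 genes. The difference was positive in 8834 of all genes and in 1904 of the 1994 in the highest decile. Over all genes 5.38% were called higher and 0.687% lower. Of the 10, 8 had an unadjusted limma p under 0.05, all of them in the highest decile. So did 26.3% of all genes and 1545 of the 1994 in that decile. In the decile of highest mean expression, where 8 of the 10 lay, 36% were called higher and the median was 1.59. All cyclin D1 glands stood above both controls in 8 of the 10, against 22.4% of all genes and 82.2% of the highest decile. Among the 8 in that decile it was all 8. After renormalization 0 of the 10 passed, and over all genes 0.256% were higher and 0.105% lower. Stag2 and Top2a, 2 of the 10, then had an unadjusted limma p under 0.05. So did 18.7% of all genes and 831 of the 1994 in the highest decile. The median of the 10 was then 0.87, with 9 positive, and 4 had groups that did not overlap, with cyclin D1 higher, against 20.1% of all genes and 33.7% of the highest decile. On that scale 9522 of all genes were positive, and 1272 of the 1994 in the highest decile.

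Whether Stag2 and Top2a passed depended on which mice were in the test. Both were lost without control 1 (adjusted p = 0.107 for each), without cyclin D1 gland 1 (0.0957 and 0.0939), without cyclin D1 gland 2 (0.0642 and 0.0797) and without cyclin D1 gland 3 (0.0646 and 0.0695), in that order of genes. Limma called 0 higher genes of 19938 without control 1, without cyclin D1 gland 1 or without cyclin D1 gland 2, while 5, 8 and 8 of the 10 kept an unadjusted p under 0.05, beside 24.9%, 17.9% and 17.5% of all genes. Without cyclin D1 gland 3 it called 1.5% of all genes higher and 0 of the 10, with 7 at an unadjusted p under 0.05, beside 23.6% of all genes. Shares within the highest decile were not counted with an array left out. Without control 2 it called 5 of the 10, Top2a, Stag2, Smc1a, Smc3 and Rad21, and 6.85% of all genes. The sizes moved less with 1 array left out: Top2a differed by 2.74 to 3.75 and Stag2 by 1.73 to 2.18. Renormalized without control 1, Top2a differed by 2.08 (adjusted p = 0.0528), Stag2 by 0.65 and Smc2 by 0.79, whereas Smc3 was at 0.087, Rad21 at -0.090 and Smc1a at -0.30.

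**Figure D3:**
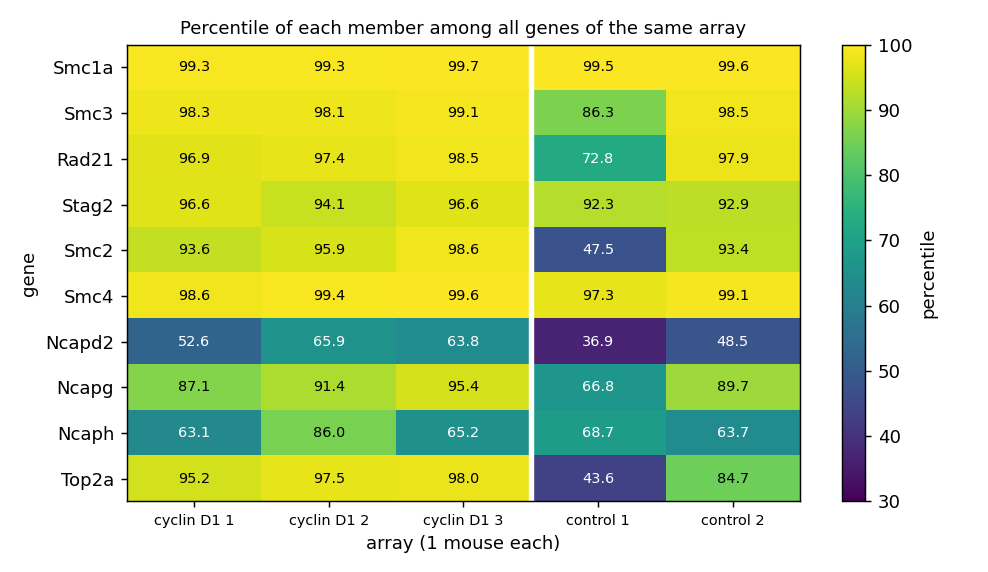
Percentile of each of the 10 genes among all genes of the same array, with the cyclin D1 arrays on the left and the controls on the right of the white line. Top2a lies at 95.2 to 98.0 in cyclin D1 glands, against 43.6 and 84.7 in controls, while Smc1a lies above 99 on every array.

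Within the cyclin D1 group the condensin genes, by their mean and singly, and Top2a were lowest in gland 1. The mean log2 value of the 5 condensin genes was 4.66 in cyclin D1 gland 1, 5.55 in gland 2 and 5.52 in gland 3, against 3.25 and 4.20 in controls 1 and 2. The mean of the 4 cohesin genes was 7.06, 7.04 and 7.36, against 4.22 and 5.83. Of these, Smc1a and Rad21 were lowest in gland 1 as well, Smc3 read 7.19 in glands 1 and 2, and Stag2 was highest in gland 1. A list of 18 measured markers of cycling cells averaged 3.63, 4.34 and 4.19, against 2.93 and 3.16, and was thus also lowest in gland 1 among the cyclin D1 mice. In that list 3 genes rose, Bub1 (log2 difference 1.96), Bub1b (1.16) and Mcm6 (2.28), none fell, and 16 of 18 differences were positive with a median of 0.67. Of all 19938 genes 8834 had a positive difference, and 1904 of the 1994 in the highest decile, where 3 of the 18 lay. Over all genes 5.38% were called higher. After renormalization 0 of the 18 passed, beside 0.256% of all genes called higher. On that scale 7 had an unadjusted limma p under 0.05, as did 18.7% of all genes, and the median was 0.61. The marker Mki67 read 5.25, 7.02 and 6.56, against 3.63 and 4.10, and did not pass (limma adjusted p = 0.0664, or 0.224 renormalized). Its order across the 3 cyclin D1 glands was that of Top2a. Not all markers of the list had this order, since Ccna2, Pcna and Bub1b were highest in gland 3. The share of all genes that were lowest in gland 1 was not counted.

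Other cell type markers moved with the groups as well. Summed after undoing the logarithm, the 18 cycling-cell markers came to 506 to 839 in cyclin D1 glands and 146 and 218 in controls. The 7 measured milk genes came to 8938 to 11434, against 2230 and 4025, and 5 of them rose. Luminal epithelial markers came to 208 to 291, against 111 and 108, with Epcam and Cdh1 passing among 9. Over all genes 5.38% were called higher, and 36% in the highest decile, where all 7 milk genes and 3 of the 9 luminal markers lay. On the renormalized scale 1 of the milk genes and 0 of the luminal markers passed, beside 0.256% of all genes called higher. Adipocyte markers overlapped, at 436 to 1769 against 782 and 965, with a median log2 difference of 0.11. After renormalization that median was -0.87, and the mean of the adipocyte list, at 5.43, 4.21 and 5.15 in cyclin D1 glands, lay below both controls, at 5.99 and 5.51. As deposited, lymphocyte markers overlapped too, at 44.0 to 89.4 against 57.6 and 61.6. Myoepithelial markers came to 171 to 327, against 71.5 and 106, and macrophage markers to 32.9 to 83.4, against 31.5 and 30.3. Of the 4 macrophage markers only Cd68 had all cyclin D1 glands above both controls. The median log2 difference of that list was 0.046, with 2 of 4 positive. Among the 7 myoepithelial markers 5 differences were positive and Acta2 alone passed, while Krt14 and Oxtr differed by -0.098 and -0.29. Renormalized, Acta2 differed by 0.92 and did not pass (limma adjusted p = 0.177). The renormalized mean of the myoepithelial list overlapped, at 4.01, 4.12 and 3.9358 in cyclin D1 glands against 3.55 and 3.9360 in controls. That of the macrophage list overlapped too, at 3.56, 2.85 and 3.07 against 2.98 and 2.82. Fibroblast markers, at 327 to 632 against 130 and 441, and endothelial markers, at 52.4 to 89.8 against 43.6 and 54.3, overlapped. No marker of the cycling, milk, luminal or adipocyte lists passed as lower. The part of these shifts in the differences of the 10 genes was not tested, and in whole-gland RNA a larger number of such cells and more RNA per cell cannot be told apart.

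**Figure D4:**
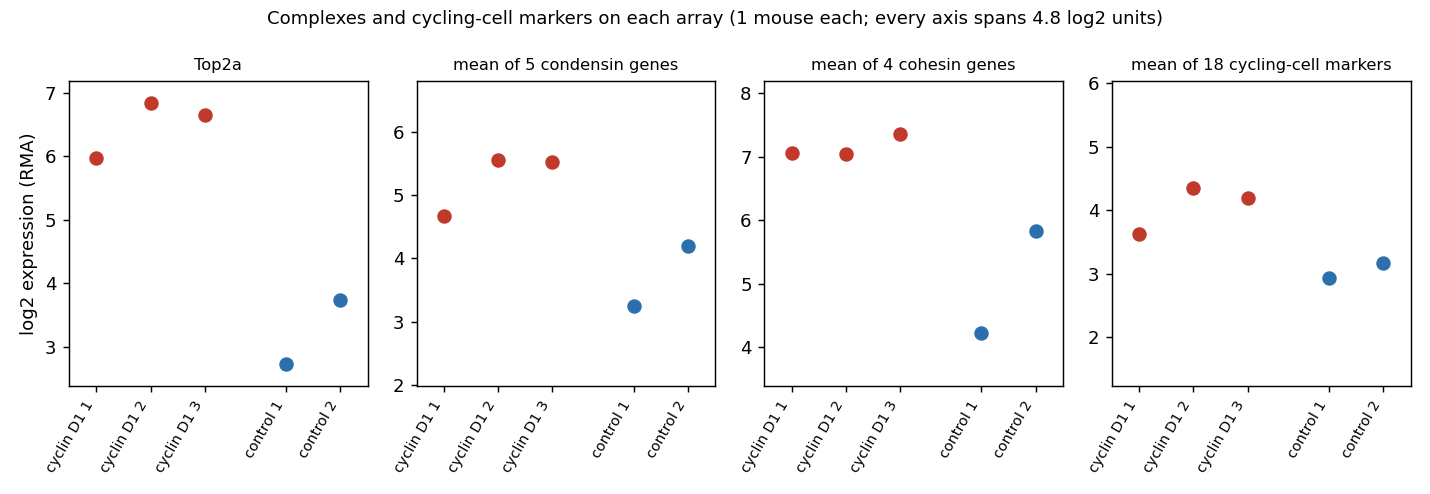
Log2 expression (RMA) on each array of Top2a, of the mean of the 5 condensin genes, of the mean of the 4 cohesin genes and of the mean of 18 cycling-cell markers, with cyclin D1 glands in red and controls in blue. Top2a, the condensin mean and the cycling-cell mean are lowest in gland 1 among the cyclin D1 mice, and the cohesin mean is lowest in gland 2, by 0.02.

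Of 36 further genes of chromosome structure 9 rose and 0 fell. Over all genes 5.38% were called higher, and 36% in the highest decile, where 11 of the 36 lay. Their median difference was 0.78, and 22 had all cyclin D1 glands above both controls, against 22.4% of all genes and 82.2% of that decile. After renormalization 1 passed, beside 0.256% of all genes called higher, and the median was 0.37. Among 14 genes that load, release, acetylate or cleave cohesin, or that stop it on chromatin, 5 rose. Pds5a and Pds5b bind the cohesin ring and govern its release. Pds5a read 6.97, 7.65 and 7.33 in cyclin D1 glands, against 3.88 and 4.58 in controls, and rose by 3.09 log2 units (SE 0.30, limma adjusted p = 0.0165). Pds5b rose by 1.73 (adjusted p = 0.0443), and Wapl, which opens the ring, by 2.18 (adjusted p = 0.0394). Ctcf, the zinc finger protein at which cohesin loops stop, rose by 1.34 (adjusted p = 0.0213). Renormalized, Pds5a differed by 1.67, Pds5b by 1.06, Wapl by 1.02 and Ctcf by 1.03, and none of these passed.

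Sgo2a, a shugoshin that guards centromeric cohesin from separase, read 4.59, 4.95 and 4.43 in cyclin D1 glands, against 2.47 and 2.84 in controls. It rose by 2.0 (SE 0.22, limma adjusted p = 0.0178) and was the 1 gene of the 36 that also passed after renormalization, by 1.75 (adjusted p = 0.0434). Control 1 lay below the olfactory receptor mean for Sgo2a, so its difference is inexact. The separase gene Espl1 read 2.56, 2.53 and 2.56, against 2.81 and 2.76, a difference of -0.23 that did not pass (adjusted p = 0.289), and Cdca5, which encodes sororin, differed by -0.33 (adjusted p = 0.292). In both genes every cyclin D1 gland stood below both controls, as in 22.6% of all genes.

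The cohesin paralogs gave no call. Stag1, which can take the place of Stag2 in the ring, read 5.96, 5.96 and 5.31, against 2.94 and 4.47, a difference of 2.04 (SE 0.49, limma adjusted p = 0.0740), or 1.21 renormalized. The other 4 are known from meiosis, namely Smc1b, Stag3, Rec8 and Rad21l, and had values of 1.56 to 2.66 in cyclin D1 glands and 2.07 to 3.15 in controls. Smc1b differed by -0.21 (adjusted p = 0.482) and did not exceed the olfactory receptor mean in controls 1 and 2 or in 2 of the cyclin D1 glands.

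Of 10 genes of condensin II, the Smc5/6 complex and Smchd1, 3 rose. Smc5, an ATPase of a complex used in DNA repair, read 5.91, 6.21 and 5.96, against 4.33 and 4.30, and rose by 1.71 (SE 0.15, limma adjusted p = 0.0165). Its 2 controls differed by 0.03, but after renormalization its difference was 0.24. Smc6, its partner, rose by 2.25 (adjusted p = 0.0489), and Smchd1, a protein with an SMC hinge that acts in X inactivation, by 2.26 (adjusted p = 0.0289). Renormalized, Smc6 differed by 0.48 (95% interval -0.53 to 1.49) and Smchd1 by 1.23, neither passing. The condensin II subunits gave no call. Ncapd3 read 3.65, 4.24 and 3.57, against 2.82 and 2.74, with groups that did not overlap on either scale and a difference of 1.04 (95% interval 0.44 to 1.63, limma adjusted p = 0.0678), or 0.92 renormalized. Ncaph2 read 2.98, 2.95 and 3.20, against 3.26 and 3.09. Ncapg2 was highest in cyclin D1 gland 2, where Ncaph was high, at 3.91 against 2.48 and 2.74 in the other 2. Its controls both read 2.37, no higher than the olfactory receptor mean. Its difference is therefore given as a bound, 0.59, with that mean in place of the controls. All cyclin D1 glands stood above both controls on both scales, as in 22.4% of all genes as deposited and 20.1% renormalized.

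Among 7 topoisomerase genes and genes that repair their DNA adducts, Top1 rose by 1.67 (SE 0.29, limma adjusted p = 0.0377), but renormalized its difference was -0.13. Top2b, the topoisomerase II of resting as well as dividing cells, read 7.09, 6.53 and 6.81, against 3.62 and 5.32. Its difference of 2.34 did not pass (adjusted p = 0.0629), and renormalized it was 1.08, beside 2.52 for Top2a. The difference between the 2 topoisomerase II genes was not tested. Without cyclin D1 gland 1 or without gland 2, 0 of the 36 passed, and 0 of all genes were called higher. Without cyclin D1 gland 3 Sgo2a and Smc5 passed, beside 1.5% of all genes called higher.

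**Figure D5:**
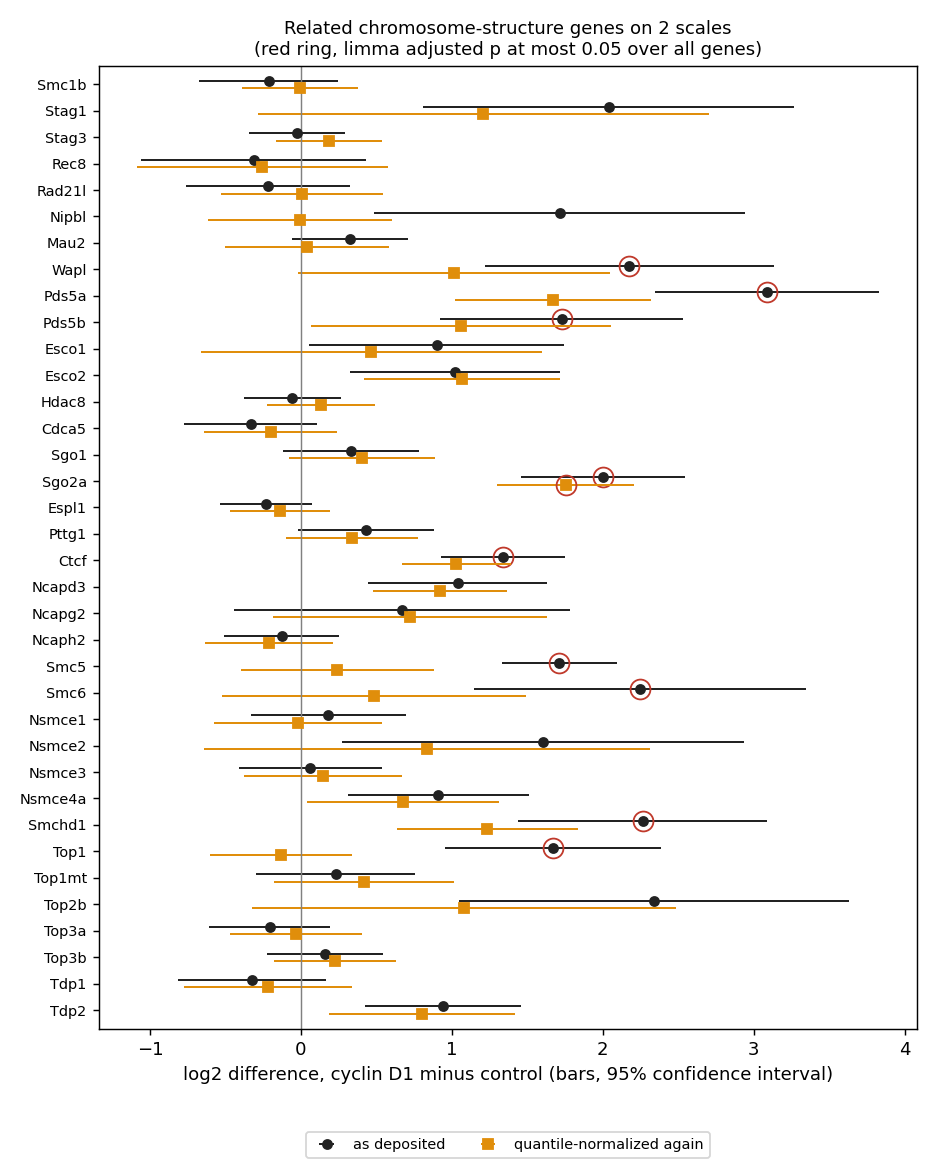
Log2 difference, cyclin D1 minus control, of 36 related genes with 95% confidence intervals, as deposited (black) and quantile-normalized again (orange). Red rings mark the 9 genes that passed as deposited and Sgo2a, which passed on both scales. Smc5, Smc6 and Top1 lie much nearer to 0 after renormalization.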

How the data were processed

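The authors deposited RMA values on a log2 scale, 1 per probe set. The submitters' processing notes name Affymetrix Expression Console 1.1, and the log base rests on the range of the values. The background setting was not given in the sources used here. Of 35556 probe sets, 21789 had 1 gene symbol in the platform annotation, 1621 several and 12146 none. By Entrez identifier 21698 were found in the RefSeq table of GRCm38.p6, and 0 symbols needed updating. The probe set with the highest mean was kept per symbol (999 genes had more than 1), with no filter on dim genes. Groups came from the sample titles, and the mice were separate animals per the series' design. limma 3.58.1 in R 4.3.3 (lmFit, eBayes) compared cyclin D1 with control glands over all 19938 genes, with 3 residual and 2.39 prior degrees of freedom, 2-sided, Benjamini-Hochberg adjusted over all genes, at a threshold of 0.05. Intervals are at 95%. The number of arrays limits the precision. The script was tested on simulated data. Alternatives were renormalization, median centring, other probe set and prior choices, a filter on dim genes, array weights, a replicate block and each array left out.

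The members and the related gene and marker lists were chosen with earlier results of these data known. All 10 members are named, and from each related list the genes that passed or, with none, the 2 with the smallest p. Genes of the lists outside this rule (Espl1, Cdca5, Ncapd3, Ncaph2, Ncapg2, Top2b, Stag3, Rec8, Rad21l, Mki67 and the other markers) were named after their values were seen.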

Additional observations from a re-analysis of the deposited data

How the results depend on the processing

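The count of members called higher, 2 as reported, stayed at 2 with median centring, probe sets averaged per gene, an eBayes prior with an intensity trend, a robust eBayes prior and the dimmest 25% of genes left out. With probe sets averaged the Top2a difference was 1.32. The count of members called higher was 0 after renormalization and with array weights. With the replicate number as a block, which leaves cyclin D1 gland 3 out of the difference, it was 4 (Ncapg, Smc2, Smc4 and Top2a). Leaving out 1 array gave 0 to 5. No member was called lower under any setting run. Counts over all genes, 1072 higher and 137 lower, were 51 and 21 after renormalization, 263 and 4 with array weights, 622 higher with the trend and 1137 and 10 with the replicate block, and ranged over 0 to 1365 and 0 to 1063 with 1 array left out. The 9 related genes became 1 after renormalization, 5 with the trend, 4 with array weights, and 0 to 11 with 1 array left out. Renormalization without control 1, chosen after seeing the data, gave 0 members, 3 related genes, and 555 higher and 894 lower genes. Among the members and the related genes named by rule, signs turned after renormalization for Smc1a (-0.21) and Top1 (-0.13). They turned after renormalization without control 1 for Smc1a (-0.30), Rad21 (-0.090), Smc1b (0.030) and Top1 (-0.071). Of the other related genes, Nipbl (1.71 to -0.0069), Nsmce1, Hdac8, Stag3 and Rad21l also turned after renormalization. The cause was not tested. The replicate numbers mark different animals, and same-numbered arrays deviated together at r = -0.026 and 0.13, so they were not taken as pairs.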
